A study of Mus musculus with 12 samples.

Results

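The circadian clock genes described here are Clock, Per1, Per2, Per3, Cry1, Cry2, Nr1d1, Nr1d2 and Dbp, read in mouse muscle by all probe sets whose annotation gives only 1 of these 9 symbols. They comprised 21 probe sets of the 45101 on each array, of which 34945 carried a single gene symbol. Of the 9 genes, 4 had 1 probe set and 5 had several. The 12 one-colour Affymetrix arrays came from 4 groups of 3: soleus of mice with a knockout (KO) of H6pd, soleus of wild-type (WT) mice, tibialis anterior (TA) of KO mice and TA of WT mice. All mice were 4 weeks old and weaned, with no overt myopathy on histology per the design text, and the strain, the deleted part of the gene and any Cre or clone are not given in the sources used here. H6pd encodes hexose-6-phosphate dehydrogenase, which makes NADPH in the endoplasmic reticulum and thereby drives the enzyme that reactivates glucocorticoids there. The titles number the arrays of each group 1, 2 and 3 as biological replicates. They give no hour or day of sampling, nor whether both muscles of equal number are from the same mouse, so the number is the only label that could follow a time of sampling. A number can equally follow a day of dissection, extraction or hybridisation, and these cannot be told apart.

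The clock is a feedback loop of transcription that runs in nearly every cell. CLOCK and its partner BMAL1 (gene Arntl) bind E-box sequences and drive the Per, Cry and Nr1d genes and Dbp, after which the PER and CRY proteins inhibit CLOCK and BMAL1 and the NR1D1 and NR1D2 receptors repress Arntl, Cry1 and Clock through ROR elements. DBP carries the rhythm to output genes through D-box sequences, and in skeletal muscle the clock acts on fuel choice and on many other transcripts, so that the same tissue taken at another hour has other levels of these transcripts.

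The sequences below are shown because they hold letter matches to the motifs named above, or belong to the gene that differed most between arrays. Promoter windows from RefSeq (build GRCm38.p6) were found for 8 of the 9 genes, Per2 being the exception, and gave 11 windows that run from 250 bases before to 50 bases after a start site. The 250 upstream bases of Dbp (chr7:45704997-45705246, plus strand), Per1 (chr11:69098699-69098948, plus strand), Per3 (chr4:151044666-151044915, minus strand), Nr1d2 (chr14:18239107-18239356, minus strand), Cry1 (chr10:85185055-85185304, minus strand) and Clock (chr5:76303503-76303752, minus strand) read as follows, 5′ to 3′ on the strand of the gene, with motif matches in capitals.
Dbp: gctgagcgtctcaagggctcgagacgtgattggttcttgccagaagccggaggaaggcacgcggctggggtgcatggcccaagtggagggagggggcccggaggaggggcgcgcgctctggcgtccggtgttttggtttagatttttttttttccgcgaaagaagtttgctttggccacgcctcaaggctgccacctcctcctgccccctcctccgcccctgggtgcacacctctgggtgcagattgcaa
Per1: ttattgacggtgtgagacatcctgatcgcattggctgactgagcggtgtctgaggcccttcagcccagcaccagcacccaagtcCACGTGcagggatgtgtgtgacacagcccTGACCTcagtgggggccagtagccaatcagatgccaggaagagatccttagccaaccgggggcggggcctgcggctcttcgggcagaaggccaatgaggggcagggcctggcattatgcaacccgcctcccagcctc
Per3: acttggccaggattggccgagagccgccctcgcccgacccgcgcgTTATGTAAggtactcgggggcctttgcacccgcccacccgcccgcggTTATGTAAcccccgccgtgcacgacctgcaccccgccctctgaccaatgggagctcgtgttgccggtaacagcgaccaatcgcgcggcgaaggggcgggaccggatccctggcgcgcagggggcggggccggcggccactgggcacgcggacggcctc
Nr1d2: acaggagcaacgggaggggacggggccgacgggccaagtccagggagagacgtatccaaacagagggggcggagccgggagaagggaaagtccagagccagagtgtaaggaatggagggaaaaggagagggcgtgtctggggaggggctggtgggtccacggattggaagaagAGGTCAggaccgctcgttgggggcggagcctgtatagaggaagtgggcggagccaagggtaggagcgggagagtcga
Cry1: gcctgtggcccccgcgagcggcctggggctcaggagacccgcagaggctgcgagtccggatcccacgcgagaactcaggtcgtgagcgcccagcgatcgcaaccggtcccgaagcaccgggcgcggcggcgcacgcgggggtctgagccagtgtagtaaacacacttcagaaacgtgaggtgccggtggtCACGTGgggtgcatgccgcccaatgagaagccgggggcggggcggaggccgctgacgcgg
Clock: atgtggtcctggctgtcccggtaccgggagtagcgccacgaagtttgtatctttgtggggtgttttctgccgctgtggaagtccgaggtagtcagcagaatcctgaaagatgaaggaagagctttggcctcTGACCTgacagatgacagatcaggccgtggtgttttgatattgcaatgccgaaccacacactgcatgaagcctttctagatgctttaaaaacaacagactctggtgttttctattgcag
The capitals mark the E-box CACGTG, the D-box TTATGTAA and the core of the ROR element, AGGTCA, which reads TGACCT where it lies on the opposite strand. Both strands were searched in the whole windows, and no 2 of these motifs overlapped in the windows shown. Per1 had an E-box whose first base lay 166 bases before its start site and a ROR element core 137 bases before it. Per3 had D-boxes 205 and 158 bases before its start. In Cry1 an E-box lay 60 bases before the start, and ROR element cores lay 77 bases before the start in Nr1d2 and 119 bases before it in the Clock window shown. Per1 had 2 windows and Clock 3, and the windows of these genes not shown held none of the motifs. The windows of Nr1d1 and Cry2, also not shown, held none either. Of the 11 windows, 2 held the E-box, 1 the D-box and 3 the ROR element core. Of all 32851 windows of the same length, 7.15% held the E-box, 0.938% the D-box and 16.3% the ROR element core. These are matches of letters only, and for the Dbp window no match says no more than that these letters are not in it.

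The values are log2 signals, brought to one scale by quantile normalization. Array medians lay between 3.05 and 3.16, and signals near these medians are at the dim end of the table, where a fold change may understate a change in RNA. Of the 21 probe sets, 18 passed a filter on low values (log2 above 2.76 on at least 3 arrays) and stood for all 9 genes. The 3 that failed were Per2 1417603_at and Per3 1460662_at, flat near log2 2 on every array, and Per2 1457350_at, which reached 3.15 in KO TA and 3.10 in WT TA on the arrays numbered 3 and 2.62 and 2.65 on those of KO and WT soleus. Tests were made with limma on all 22648 probe sets that passed, and a probe set is called where its Benjamini-Hochberg adjusted p was under 0.05. In whole muscle fewer cells of a type and less RNA per cell cannot be told apart. The arrays matched their tissue: 8 of 8 slow fibre markers were higher in soleus in both genotypes, with a mean log2 level of 15.1 to 15.4 on soleus arrays against 6.31 to 9.21 on TA arrays. The 1 probe set of H6pd, whose place relative to the deletion is not given, differed by -1.37 between KO and WT soleus (SE 0.626, adjusted p = 0.654) and by 0.11 in TA (adjusted p = 0.972), and genotypes follow the titles.

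The clock genes differed between arrays by replicate number. In all 4 groups the array numbered 3 had more Dbp, Per1, Per2, Per3, Nr1d2 and Cry2 signal than the mean of arrays 1 and 2 at the probe sets named in the next sentence, and less Clock at 3 of its 4 probe sets. Other probe sets of Per3, Nr1d2 and Clock did not all share these directions. Dbp was 4.92-fold higher (1438211_s_at), Per1 4.20-fold (1449851_at), Per2 2.50-fold (1417602_at), Per3 2.51-fold (1421087_at), Cry2 1.53-fold (1426383_at) and Nr1d2 1.52-fold (1416958_at). The folds of the dim probe sets depend on the scale: with 32 added to the unlogged signal the log2 difference was 0.79 for Per1 (2.07 without), 0.42 for Per2 (1.32 without) and 0.43 for Per3 1421087_at (1.33 without), all still called, against 2.17 for Dbp (2.30 without). The arrays numbered 3 stood apart across the whole table too. All 4 lay above the other 8 arrays for 778 probe sets (3.44% of those tested) and below them for 835 (3.69%), whereas the arrays numbered 1 did so for 41 and 72 and those numbered 2 for 20 and 25. Of the 18 clock probe sets, 7 lay above on all 4 arrays numbered 3 and 1 lay below. The 7 include Per3 1458176_at, the 1 clock probe set that passed the filter through arrays numbered 3 only. None did for number 1 or number 2.

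**Figure D1:**
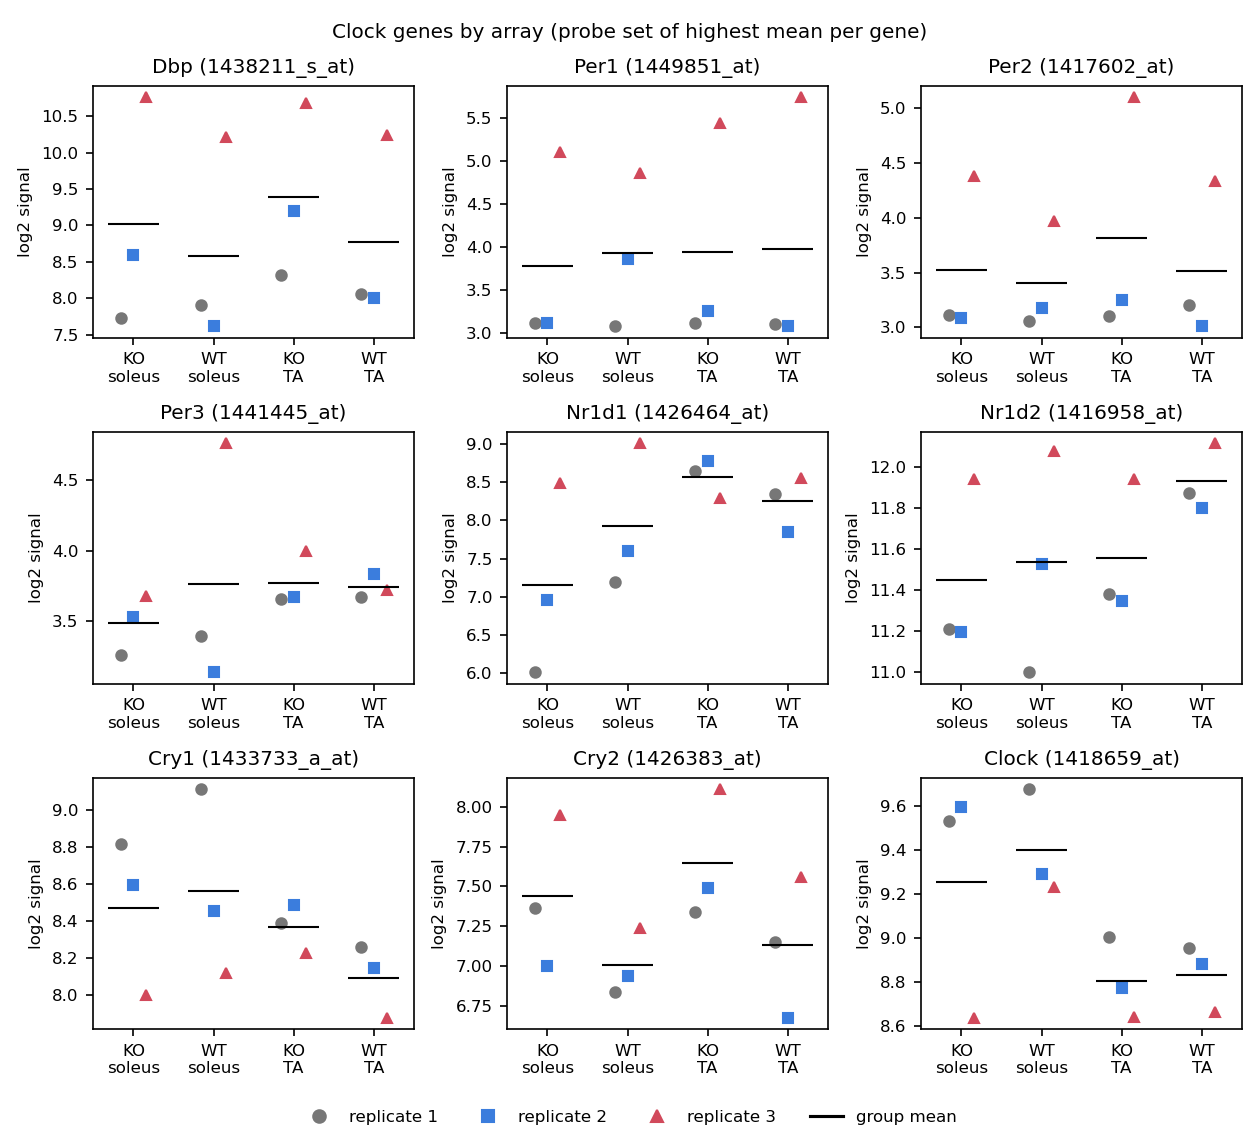
Log2 signal of the 9 clock genes on each of the 12 arrays, for the probe set of highest mean of each gene, with groups along the x axis. Each point is 1 array, its shape and colour give the replicate number, and the black line is the mean of the group; each panel has its own log2 axis. Arrays numbered 3 (triangles) lie above the other 8 arrays for Dbp, Per1, Per2 and Nr1d2.

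A limma F-test of the replicate number, with group as a covariate, called 10 of the 18 clock probe sets, against 11.4% of all 22648 probe sets (2574, of which 1238 were higher and 1336 lower at number 3). The 10 lay in 7 of the 9 genes, 8 of them higher and 2 lower at number 3. Over the 18 the median log2 difference of number 3 from the mean of numbers 1 and 2 was 0.56, against 0.01 over all probe sets. Of the 18, 9 were higher in all 4 groups, 5 were lower in all 4 and 4 were mixed. The share of all probe sets with 1 direction in all 4 groups was not computed, so these counts are descriptions only. The 9 and the median include Per3 1458176_at, which passed the filter through arrays numbered 3 only, so its place among the 9 supports nothing. The F-test asks whether any number differs, and the direction and size are those of number 3 against the mean of the other numbers, a contrast chosen after the arrays numbered 3 were seen to stand apart. It counts every array as a separate sample, and its p-values would be too small if soleus and TA of one number shared a mouse.

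Dbp, the D-box binding activator whose transcript is among those of widest daily swing in many tissues, led the list. At probe set 1438211_s_at the array numbered 3 read log2 10.76 in KO soleus, beside 7.73 and 8.59 on arrays 1 and 2, and 10.21 in WT soleus, beside 7.91 and 7.61. In TA the array numbered 3 read 10.68 in KO, beside 8.31 and 9.20, and 10.25 in WT, beside 8.06 and 8.01. Every array numbered 3 was thus above each of the other 8, of which KO TA array 2 came closest. The mean difference was 2.30 (SD over the 4 groups 0.296, SE 0.194, adjusted p = 0.00181, limma). The other probe set, 1418174_at, read 9.34, 9.04, 9.44 and 9.22 on the arrays numbered 3 (KO and WT soleus, then KO and WT TA), against 6.90 to 8.29 on the other arrays, and differed by 1.78 (SE 0.191, adjusted p = 0.00421). Both probe sets of the gene therefore gave the same split.

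The Period genes encode the repressors that CLOCK and BMAL1 switch on. Per1 1449851_at read 5.11 in KO soleus, 4.86 in WT soleus, 5.45 in KO TA and 5.74 in WT TA on the arrays numbered 3, against 3.08 to 3.86 with a median of 3.11 on the other 8. Most of these 8 thus lay at the dim end of the table, and the difference of 2.07 (SD over groups 0.528, SE 0.194, adjusted p = 0.00244) may understate the change. Per2 1417602_at behaved alike, at 4.38 in KO soleus, 3.98 in WT soleus, 5.10 in KO TA and 4.34 in WT TA on the arrays numbered 3 and between 3.01 and 3.25 on the rest, a difference of 1.32 (SE 0.144, adjusted p = 0.00456). For both genes the arrays numbered 3 were the only ones clearly above the dim end, apart from WT soleus array 2 for Per1 (3.86).

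Per3 had 6 probe sets, 5 of which passed the filter, and they did not respond equally. Probe set 1421087_at read 4.47 in KO soleus, 4.83 in WT soleus, 3.90 in KO TA and 5.01 in WT TA on the arrays numbered 3, against 2.42 to 3.65 on the other arrays, and differed by 1.33 (SE 0.155, adjusted p = 0.00511). Probe set 1442243_at differed by 0.50 (adjusted p = 0.0405). The remaining 3 did not pass: 1441445_at differed by 0.52 (adjusted p = 0.298), 1458176_at by 0.64 (adjusted p = 0.107) and 1421086_at by 0.10 (adjusted p = 0.613). All 5 were dim, with no array above log2 5.02. Probe set 1458176_at, at 3.74 in KO soleus and 3.70 in WT soleus on the arrays numbered 3, lay at 2.78 and 2.72 on those of KO and WT TA and between 2.57 and 2.64 on all other arrays.

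The Nr1d receptors (REV-ERB alpha and beta) repress Arntl. Nr1d2 1416958_at read 11.95 in KO soleus, 12.08 in WT soleus, 11.94 in KO TA and 12.12 in WT TA on the arrays numbered 3, against 11.00 to 11.88 on the others. The 4 arrays numbered 3 lay above all others, with WT TA arrays 1 and 2 closest, and the difference was 0.60 (SE 0.112, adjusted p = 0.0283). The dim probe set of the same gene, 1416959_at, went the other way by -1.05 (SE 0.245, adjusted p = 0.0463), with 2.64 to 2.78 on the arrays numbered 3 and 2.69 to 4.63 on the rest. It was lower at number 3 in all 4 groups, so the probe sets of Nr1d2 disagree in direction.

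Nr1d1 1426464_at had its highest signal on array 3 in both soleus groups, while its TA values overlapped. In KO soleus the array numbered 3 read 8.49, beside 6.01 and 6.96, and in WT soleus it read 9.01, beside 7.19 and 7.6. In KO TA the array numbered 3 read 8.30, beside 8.65 and 8.78, and in WT TA it read 8.55, beside 8.35 and 7.85. The number difference averaged 0.91 (SE 0.380, adjusted p = 0.282) and was not called. Between the muscles it differed by 1.79 (soleus minus TA, SE 0.366). The F-test of limma asks whether the differences among numbers 1, 2 and 3 are the same in both muscles, not about the 1.79 alone. It did not pass either (unadjusted p = 0.00564, adjusted p = 0.652). That test of muscle against muscle was added after the arrays were seen and called 0.0132% of all probe sets. The 1 clock probe set among them was the dim Per3 1458176_at, which passed the filter only through arrays numbered 3, so nothing is read from its call.

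The Cryptochromes, which complete the repressor complex with the PER proteins, went in opposite directions. Cry2 1426383_at read 7.95 in KO soleus, 7.24 in WT soleus, 8.11 in KO TA and 7.56 in WT TA on the arrays numbered 3, against 6.67 to 7.49 on the rest. Within each group the array numbered 3 was the highest, although the ranges overlapped across groups, and the difference was 0.62 (SE 0.119, adjusted p = 0.0308). Cry1 1433733_a_at read 8.001 in KO soleus, 8.12 in WT soleus, 8.23 in KO TA and 7.88 in WT TA on the arrays numbered 3, against 8.14 to 9.11 on the others. It was the lowest of its group each time, at a difference of -0.48 (SE 0.124) that narrowly failed the test (adjusted p = 0.0706).

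Clock, the partner of BMAL1, had 4 probe sets, of which 3 were lower at number 3 in all 4 groups. Only 1439314_at was called. It read 5.26 in KO soleus, 4.995 in WT soleus, 5.34 in KO TA and 5.14 in WT TA on the arrays numbered 3, below the 5.53 to 5.98 of every other array, a difference of -0.51 (SE 0.101, adjusted p = 0.0319). Probe set 1418659_at differed by -0.42 (adjusted p = 0.115), with KO soleus array 3 at 8.64 beside 9.533 and 9.595 as the widest gap. Probe set 1418660_at differed by -0.19 (adjusted p = 0.281) and 1435775_at by 0.16 (adjusted p = 0.582).

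**Figure D2:**
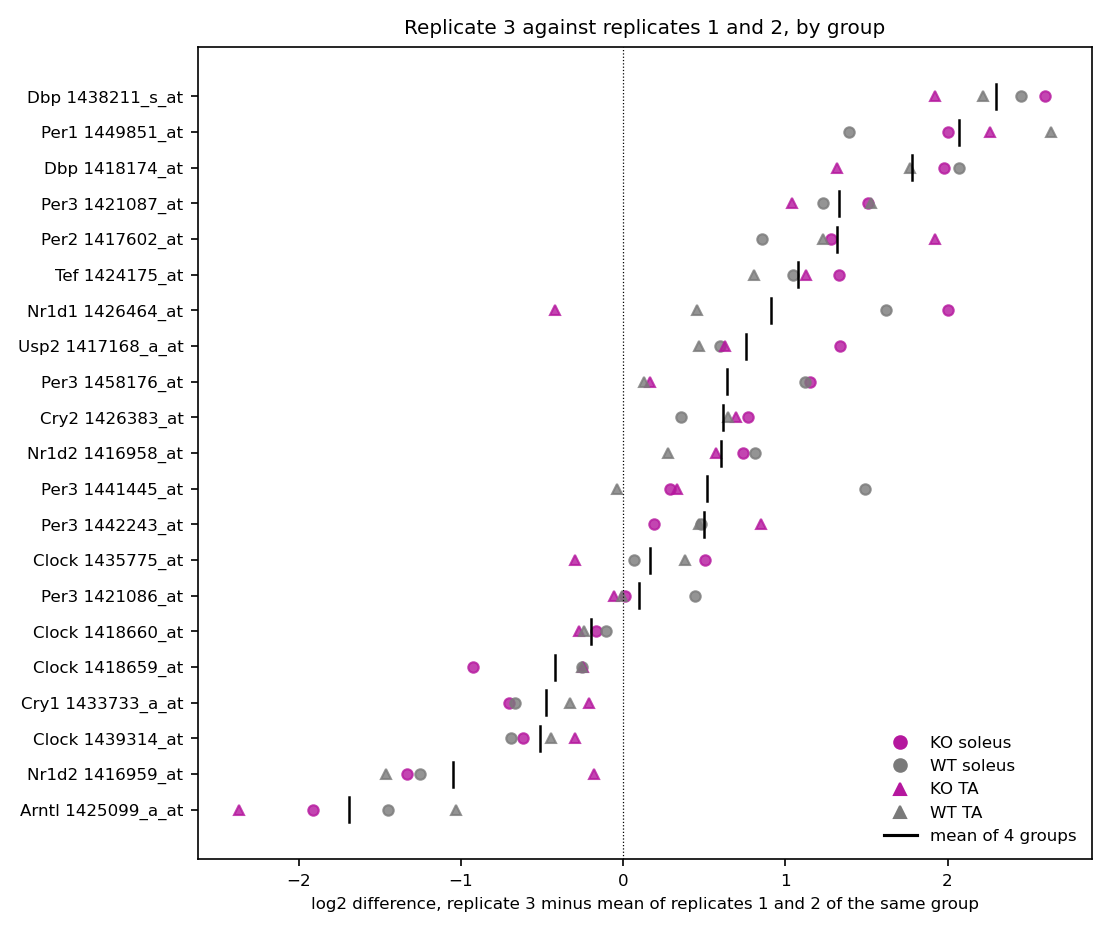
Log2 difference of the array numbered 3 from the mean of arrays 1 and 2 of its group, on the x axis, for the 18 clock probe sets that passed the filter and, beside them, Tef, Usp2 and Arntl. Coloured points are the 4 groups and the bar is their mean. Dbp, Per1, Per2 and Per3 1421087_at lie right of 0 in every group, Clock 1439314_at and Arntl left of it, and Nr1d1 splits by muscle.

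How firm these calls were depended on how many arrays entered. The 5 probe sets Dbp 1438211_s_at, Dbp 1418174_at, Per1, Per2 1417602_at and Per3 1421087_at kept their calls when any 1 of the 12 arrays was left out, with adjusted p at most 0.027. The other 5 calls (Cry2, both Nr1d2 probe sets, Clock 1439314_at and Per3 1442243_at) were each lost in 8 to 10 of these 12 fits. The count of called clock probe sets was 5 without KO soleus array 2, WT soleus array 3, KO TA array 2 or WT TA array 2, and 6 without KO soleus array 1, KO soleus array 3, WT soleus array 1 or WT TA array 3. It was higher without any other single array. The calls over all probe sets moved in these fits as well, and their range is given in the closing section. In the 6 soleus arrays alone the F-test called 2 of all probe sets and in the 6 TA arrays alone 0, with 2 residual degrees of freedom left. The 1 clock probe set called in soleus was Per3 1458176_at, from which nothing is read, since it passed the filter only through arrays numbered 3. The number difference of Dbp 1438211_s_at was still 2.53 in soleus (adjusted p = 0.184) and 2.07 in TA (adjusted p = 0.15), that of Per1 1.69 in soleus (adjusted p = 0.201) and 2.45 in TA (adjusted p = 0.125).

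Scatter among replicates was wide for these genes. The within-group SD was 1.37 for Dbp 1438211_s_at, 1.24 for Per1, 0.831 for Per3 1421087_at, 0.817 for Nr1d1 and 0.798 for Per2 1417602_at, between the 96.4th and the 99.5th percentile of all probe sets that passed the filter, whose median was 0.229. After the number was fitted, 0.353 remained for Dbp and 0.358 for Per1, but 0.706 for Nr1d1. Cry2 (0.4), Nr1d2 1416958_at (0.392), Cry1 (0.349) and Clock 1418659_at (0.317) lay nearer the middle, at the 67.6th to 78.9th percentile.

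No clock gene passed the test of KO against WT in either muscle. In soleus the test called 0 of the 18 probe sets, against 0.0221% of all probe sets (5), and in TA 0 of 18, against 2.02% (458, 221 higher and 237 lower). In this fit, which leaves out the replicate number, no clock probe set reached an unadjusted p under 0.05 in either muscle. Of all probe sets 1757 did in soleus and 3455 in TA. With the number fitted, as given below, some clock probe sets did in each muscle, without a call. The median of the 18 differences was -0.06 in soleus, with 8 of 18 positive, and 0.05 in TA, with 11 positive, beside medians near 0 over all probe sets. An exact permutation test of 1 gene on 3 arrays against 3 has p = 0.1 as its smallest possible value.

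Dbp 1438211_s_at averaged 9.03 ± 1.56 in KO soleus and 8.58 ± 1.42 in WT soleus (SD, n = 3 arrays each, here and below), and 9.40 ± 1.2 in KO TA and 8.77 ± 1.28 in WT TA. The differences of 0.45 (SE 1.01, 95% interval -1.82 to 2.72) and 0.63 (95% interval -1.64 to 2.89) were far inside the spread. Per1 averaged 3.78 ± 1.15 in KO soleus, 3.93 ± 0.891 in WT soleus, 3.94 ± 1.31 in KO TA and 3.98 ± 1.53 in WT TA. These means were close, but the 95% intervals of KO minus WT were wide, at -2.2 to 1.9 in soleus and -2.08 to 2.01 in TA. Nr1d1 lay lowest in KO soleus, at 7.15 ± 1.25, against 7.93 ± 0.957 in WT soleus, a difference of -0.78 (SE 0.608, adjusted p = 0.899). It was 8.58 ± 0.249 in KO TA and 8.25 ± 0.362 in WT TA, and the difference between the KO effects, -1.10 (SE 0.860, adjusted p = 0.947), was within the error as well. Over the 18 probe sets that difference was called 0 times, against 0.0353% of all probe sets (8).

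Cry2 had the smallest p in both muscles and the same sign in both. It averaged 7.44 ± 0.481 in KO soleus and 7.005 ± 0.211 in WT soleus, KO minus WT being 0.43 (SE 0.308, adjusted p = 0.872). KO TA averaged 7.65 ± 0.409 and WT TA 7.13 ± 0.444, KO minus WT being 0.52 (SE 0.308, 95% interval -0.17 to 1.21, adjusted p = 0.483). The ranges of KO and WT overlapped in both muscles, while KO was above WT in 6 of 6 pairs of equal number. Per3 1421087_at was lower in KO TA, at 3.21 ± 0.646 against 4.00 ± 0.883 in WT TA, by -0.79 (SE 0.615, adjusted p = 0.614). Cry1 differed by -0.09 in soleus and 0.27 in TA, Clock 1418659_at by -0.14 and -0.03, Nr1d2 1416958_at by -0.09 and -0.37, and Per2 1417602_at by 0.12 and 0.30, each with an interval that spans 0.

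Since the arrays numbered 3 carried much of the scatter and each group held 1 of them, a fit with the number as a block gave narrower errors. The widest SE among the clock probe sets was 0.506 with the block, against 1.01 without it. Still 0 of 18 were called in either muscle or for the difference between muscles. In TA the values nearest to a call were Per3 1421087_at (-0.79, SE 0.206, 95% interval -1.26 to -0.31, adjusted p = 0.0705) and Cry2 (0.52, SE 0.158, 95% interval 0.15 to 0.89, adjusted p = 0.105). Nr1d2 1416958_at gave -0.37 in TA (95% interval -0.72 to -0.03, adjusted p = 0.199) and Dbp 1438211_s_at 0.63 (95% interval 0.03 to 1.22, adjusted p = 0.211). In soleus the intervals of Cry2 (0.43, 95% interval 0.07 to 0.80, adjusted p = 0.31) and Per3 1421087_at (-0.54, 95% interval -1.02 to -0.07, adjusted p = 0.326) also left out 0, without a call. Over all probe sets the block moved the KO calls in TA to 1231.

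**Figure D3:**
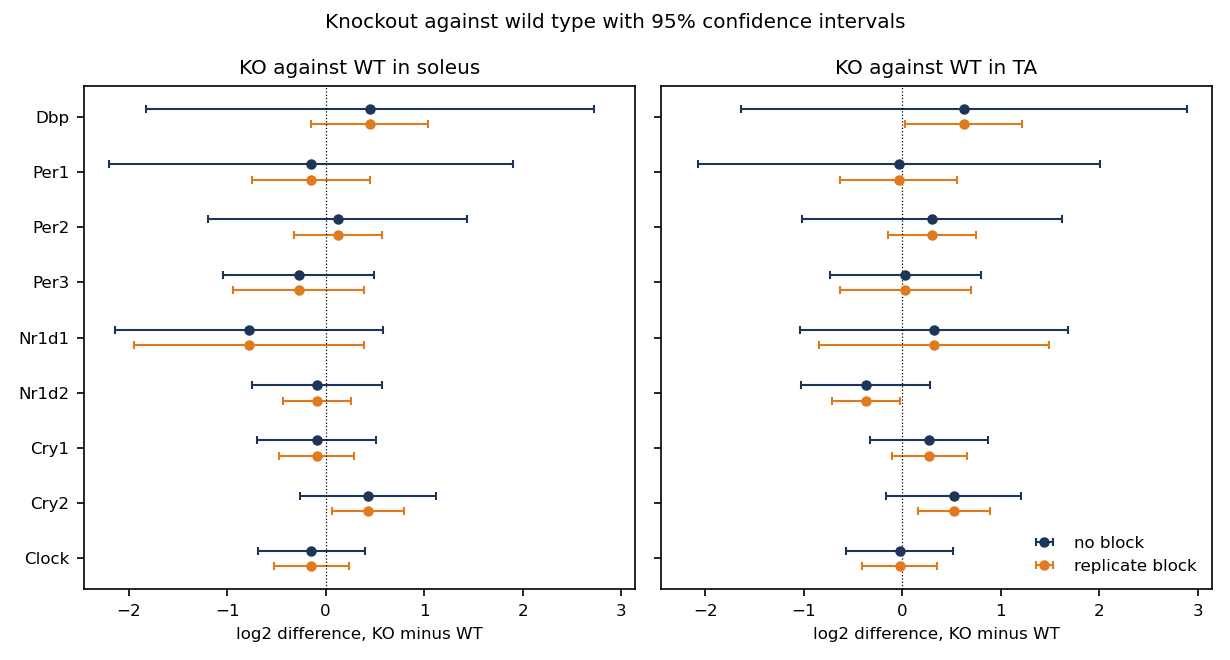
Log2 difference of KO from WT, on the x axis, for the 9 clock genes at their probe set of highest mean, in soleus (left) and TA (right). Points are estimates and bars 95% confidence intervals of the limma fit without a block (dark) and with the replicate number as a block (orange). Every interval without the block spans 0, and the block narrows those of Dbp and Per1 most.

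No clock gene passed the test between muscles, although some intervals were wide. Soleus against TA in WT called 0 of the 18, against 7.7% of all probe sets (1745), and in KO 0 of 18, against 6.6% (1494). In each genotype 1 clock probe set had an unadjusted p under 0.05. In WT it was Clock 1418659_at, at 9.40 ± 0.242 in soleus and 8.84 ± 0.151 in TA, with no overlap between the arrays, a difference of 0.57 (SE 0.244, adjusted p = 0.191). The same probe set differed by 0.45 in KO (adjusted p = 0.342). In KO it was Nr1d1, at 7.15 ± 1.25 in soleus and 8.58 ± 0.249 in TA, a difference of -1.42 (SE 0.608, 95% interval -2.78 to -0.06, adjusted p = 0.217), beside -0.32 in WT (adjusted p = 0.789). Ordered by mean, Nr1d1 ran KO TA, WT TA, WT soleus, KO soleus, and no neighbours in this order differed by more than the larger of their SDs.

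In KO the muscle comparison changed with the arrays numbered 3. Without all 4 of them Nr1d1 was called, at -2.23 (adjusted p = 0.0232). That setting was not planned beforehand and leaves only arrays 1 and 2 of each group, so the call is a description. Without KO soleus array 3 alone both Nr1d1 (-2.09, adjusted p = 0.0486) and Clock 1418659_at (0.76, adjusted p = 0.0347) were called. With the number as a block no clock probe set was called in either genotype, the smallest adjusted p being 0.0586 for Clock 1418659_at in WT and 0.108 for Nr1d1 in KO. The block moved the calls over all probe sets to 3296 in WT and 2989 in KO.

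Other genes of the loop were read from a list of 20, of which 16 passed the filter, each by its probe set of highest mean. Of the 16, 2 rose and 1 fell with number 3 in the same F-test, against 11.4% of all probe sets called, at a median difference of 0.19, and 0 were called for KO against WT in either muscle. Arntl, the BMAL1 gene, read 5.15 to 6.60 on the arrays numbered 3 and 7.33 to 8.23 on the other 8, so that all 4 were below the rest. Its difference of -1.69 (SE 0.206, adjusted p = 0.00654) was opposite in sign to Dbp and Per1. Tef, a D-box activator related to Dbp, rose by 1.08 (SE 0.145, adjusted p = 0.0092), although its dim probe set 1450184_s_at gave -0.66 (adjusted p = 0.155). Usp2, a protease that takes ubiquitin off clock proteins, rose by 0.76 (adjusted p = 0.0403). Ciart, a repressor of CLOCK and BMAL1, gave 0.88 (adjusted p = 0.0924), and Nfil3, the D-box repressor, 1.07 (adjusted p = 0.186). Bhlhe40 gave 0.41 (adjusted p = 0.197) and Npas2, which can replace CLOCK, -0.02 (adjusted p = 0.677). Arntl differed by -0.02 between KO and WT soleus and by -0.40 in TA (SE 0.762 in both). Between soleus and TA, 2 of the 16 were called in WT, against 7.7% of all probe sets, and 2 in KO, against 6.6%. Those lower in WT soleus were Rora, the activator at ROR elements (-0.73, adjusted p = 0.0179), and Csnk1d, a kinase of PER proteins (-0.68, adjusted p = 0.0487). In KO 2 fell, Btrc, a subunit of a ubiquitin ligase for PER proteins (-0.87, adjusted p = 0.0178), and Csnk1d (-0.72, adjusted p = 0.0445). The probe sets of Csnk1d disagree, since 1437690_x_at gave 0.66 in WT (adjusted p = 0.00507) and 0.92 in KO (adjusted p = 0.00105, limma). Probe set 1418889_a_at was lower in soleus, at -0.76 in WT (adjusted p = 0.0138) and -0.75 in KO (adjusted p = 0.0167). Both 1415825_s_at and 1449932_at were positive in each genotype without a call.

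Of 15 measured transcripts reported to follow the clock in muscle or elsewhere, 6 rose and 1 fell with number 3, against 11.4% of all probe sets called in either direction, at a median of 0.32. Tspan4 rose by 1.23 (adjusted p = 0.00164), Klf15, a regulator of amino acid and lipid use, by 1.5 (adjusted p = 0.00781) and Hk2, the muscle hexokinase, by 0.76 (adjusted p = 0.00792). Myod1, the myogenic factor, fell by 1.53 (adjusted p = 0.0116). For KO against WT, 1 of the 15 fell in soleus (Alas1, -0.81, adjusted p = 0.042), against 0.0221% of all probe sets called. In TA 0 were called, against 2.02%.

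Glucocorticoid-responsive transcripts were examined because adrenal steroids have a daily rhythm and because H6pd acts on glucocorticoid activation. Of 15 measured, 9 rose and 0 fell with number 3, at a median of 0.94, against the same 11.4%. Among them were Zbtb16 (1.44, adjusted p = 0.0011), Ddit4 (1.44, adjusted p = 0.00308), Cdkn1a (1.26, adjusted p = 0.00326) and Foxo1 (0.83, adjusted p = 0.00753). The mean level of the list was 10.1 to 10.6 on the arrays numbered 3 and 9.09 to 10.1 on the other 8, beside 7.65 to 7.83 and 6.68 to 7.14 for the 9 clock genes. For KO against WT, 0 of 15 were called in soleus, against 0.0221% of all probe sets. In TA 1 fell, Gadd45g (-2.11, adjusted p = 0.0111), against 2.02% called. Of 10 immediate early genes, which answer acute stimuli, 0 rose and 2 fell with number 3, against the same 11.4%. The 2 were Egr1 (-1.49, adjusted p = 0.018) and Ier2 (-0.57, adjusted p = 0.0433). For KO against WT 1 of the 10 fell in TA, Ier3 (-1.42, adjusted p = 0.0458), against the same 2.02%.

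**Figure D4:**
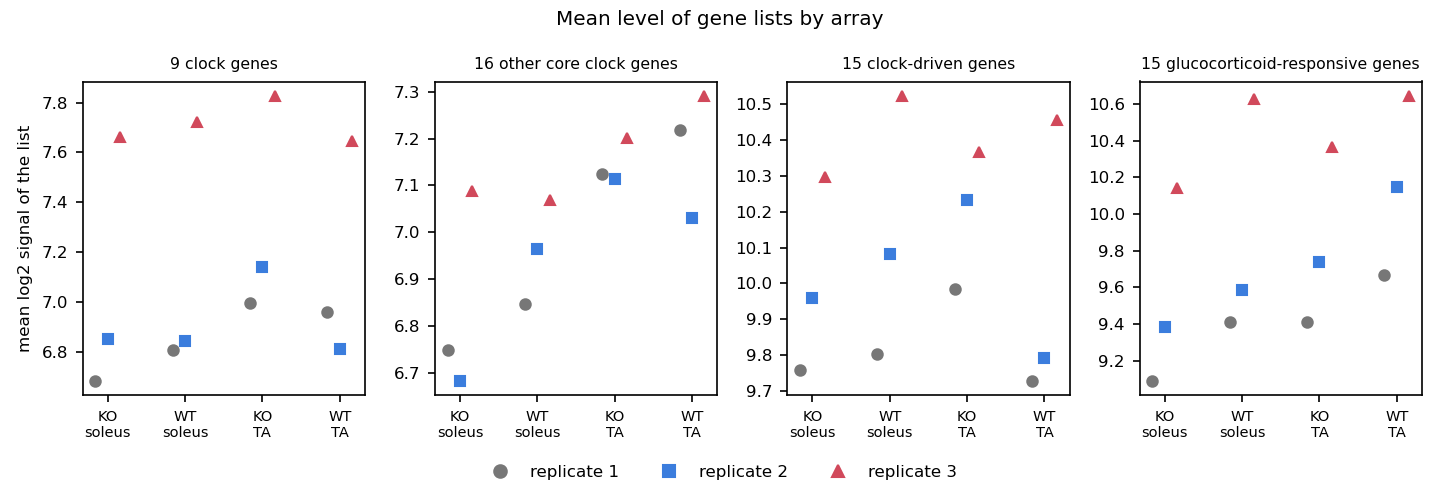
Mean log2 signal, on the y axis, of 4 gene lists on each of the 12 arrays: the 9 clock genes, 16 other core clock genes, 15 clock-driven genes and 15 glucocorticoid-responsive genes. Each point is 1 array, its shape and colour giving the replicate number, and each panel has its own axis. The clock genes lie between 7.65 and 7.83 on the 4 arrays numbered 3 and between 6.68 and 7.14 on the others.

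Of 40 markers of fibre types and other cell types, 5 were called for number (12.5%), near the 11.4% of all probe sets. Of the erythroid list, 1 of 2 measured genes fell, Alas2 (-2.12, adjusted p = 0.0203), and the mean level of the list was 3.13 to 3.59 on the arrays numbered 3 and 3.96 to 5.57 on the others. Of 3 adipocyte markers Fabp4 fell (-0.47, adjusted p = 0.0307), with the list at 6.36 to 10.2 on the arrays numbered 3 and 7.70 to 10.3 on the others. Of 6 fibroblast and tendon markers Tnmd (-0.87, adjusted p = 0.0208) and Col1a2 (-0.43, adjusted p = 0.0376) fell, with the list at 12.2 to 13.2 against 12.4 to 13.7. Of 6 endothelial markers Flt1 rose (0.86, adjusted p = 0.015), with the list at 8.21 to 8.62 against 8.15 to 8.88. No macrophage marker was called (0 of 4, list at 7.83 to 9.36 against 7.19 to 8.31), nor any Schwann cell marker (0 of 3, 7.73 to 8.80 against 7.91 to 8.73), slow fibre marker (0 of 8, median difference -0.51) or fast fibre marker (0 of 8, median -0.14). Fibre markers were not level, since 0 of 8 slow and 1 of 8 fast markers had a positive difference. The slow list spanned 6.31 to 8.63 in WT TA and the fast list 12.9 to 14.3 in KO soleus, each lowest on the array numbered 3. Ranges were narrower in KO TA for the slow list (8.80 to 9.21) and in WT soleus for the fast list (13.7 to 14.7). The part of these cells in the clock gene values was not tested. H6pd itself was 1.37 higher on the arrays numbered 3 (SE 0.187, adjusted p = 0.00978).

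The genes most like Dbp were sought among 13716 probe sets of mean log2 above 5, by Pearson correlation with Dbp 1438211_s_at over the 12 arrays after the group means were subtracted. The 12 points fall into 2 clusters, the 4 arrays numbered 3 and the other 8, and they share arrays and normalization, so the values are descriptions. Over the 8 arrays numbered 1 and 2 the means subtracted were those of 2 arrays per group. The 2 deviations of a group then mirror each other, so only 4 independent values enter and little can be read from them. The genes were chosen on all 12 arrays, these 8 included. The 5 highest were Slc25a33 (0.987), Setd6 (0.985), Tsga10 (0.983), Nudt12 (0.982) and Ddit4 (0.980), and over the 8 arrays numbered 1 and 2 these gave 0.847, 0.912, 0.774, 0.997 and 0.941. The 5 lowest were Dusp1 (-0.990), Entpd1 (-0.990), Marcks (-0.980), Lox (-0.980) and Dstn (-0.979), and over those 8 arrays -0.901, -0.836, -0.633, -0.954 and -0.785. Among the clock genes the other Dbp probe set gave 0.985 over 12 arrays and 0.787 over 8. In the same order the correlation was 0.853 and -0.293 for Nr1d2 1416958_at, 0.835 and -0.233 for Cry2, -0.784 and 0.102 for Cry1 and -0.783 and -0.050 for Clock 1418659_at. It was 0.744 and 0.569 for Nr1d1, -0.937 and -0.471 for Clock 1439314_at and -0.855 and -0.904 for Clock 1418660_at. Clock 1435775_at went the other way over 12 arrays, at 0.331 and -0.087. From the highest correlation down, Nr1d2 1416958_at ranked 835, Cry2 1016 and Nr1d1 1951 of the 13716, so many other probe sets followed Dbp more closely. The cut at a mean of 5 left out every probe set of Per1, Per2 and Per3.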

How the data were processed

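Total RNA was turned into biotin-labelled cRNA for Affymetrix arrays, per the labels. The deposited log2 signal of 45101 probe sets was used as given; the submitters' processing notes name MAS5 with no version or role, and the summary method, scaling and centring are not given in the sources used here. Precision is limited by the 3 arrays per group. Groups and replicate numbers came from the titles, which call the arrays biological replicates; p-values measure only the spread between these arrays.

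Unlogged trimmed means of the arrays differed by up to 1.11 times, so arrays were quantile normalized. Of 45101 probe sets, 34945 had 1 gene symbol, 932 several and 9224 none or were controls. Those with 1 symbol above the 40th percentile (log2 2.76) on at least 3 of 12 arrays were kept (22648, in 13009 genes). They were fitted on 4 group means over 12 arrays in R 4.3.3 with limma 3.58.1 (lmFit, eBayes with a variance trend, 2-sided, Benjamini-Hochberg adjustment over all kept probe sets, threshold 0.05). The fit was tested on simulated data. The replicate number was tested as an added factor by an F-test. Deviations from the group means correlated between arrays of equal number at 0.10 to 0.67 in every pair of groups, including pairs of different genotype, and at up to 0.45 between unequal numbers; the pairing comes from these values and the shared numbers of the titles. Alternatives changed the scaling, filter, pseudocount (32 on the unlogged scale), probe sets per gene, block and arrays.

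The rule for named genes took all 9 clock genes, any measured gene of a list of other core clock genes, up to 4 called genes of each other list per comparison, the 5 genes most and 5 least like Dbp, and H6pd. Members, lists and rule were chosen with earlier results of these data known.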

Additional observations from a re-analysis of the deposited data

Results flagged for a closer look

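Per3 1458176_at drew a call in limma's F-test of whether the number difference is the same in both muscles, but it passed the filter on low values only through 3 arrays, all numbered 3, so that the test supports nothing and the values are a description. The number 3 arrays were higher by 1.15 in KO soleus and 1.12 in WT soleus, and by 0.165 in KO TA and 0.127 in WT TA. The soleus effect minus the TA effect was thus 0.989 (SE 0.031), and the F-test gave an adjusted p = 0.00526. The call was lost when WT soleus array 3, KO TA array 3 or WT TA array 3 was left out (adjusted p up to 0.073), with values from 0.970 to 1.01 over the 12 arrays left out in turn. All values of this probe set lie at or just above the dim end of the table, between log2 2.57 and 3.74, and the 8 arrays numbered 1 and 2 lie between 2.57 and 2.64.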

How the results depend on the processing

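No alternative turned the sign of a called clock gene difference. Of 343 alternative values of the number difference of the 18 clock probe sets, 268 kept their direction and side of the threshold, 70 lost a call, 3 gained one and 2 uncalled ones changed sign. With number as the test, 6 clock probe sets were called with a filter on a mean above 5, 5 of 9 genes with 1 probe set per gene, 1 on soleus arrays only, 0 on TA arrays only and 5 to 9 with single arrays left out. By muscle, 2 were called with no filter, 0 with the mean filter, 0 with 1 per gene and 0 to 1 with arrays left out. For KO against WT no alternative called a clock probe set in either muscle. Soleus against TA called 2 in WT with the block on values as deposited (Clock 1418659_at and Cry1), 1 in KO without the arrays numbered 3 and 0 to 2 in KO with single arrays left out. The block on deposited values and the fit without the arrays numbered 3 were not planned beforehand. The filter on a mean above 5 leaves out every probe set of Per1, Per2 and Per3. The calls over all probe sets moved between settings too, as the next paragraph gives. These counts are therefore descriptions and show nothing particular to the clock genes.

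Over all probe sets (the range that ends each list is that with single arrays left out), KO against WT in soleus gave 3 calls with no filter, 1 with the mean filter, 0 on the compared arrays only, 2 without the arrays numbered 3 and 2 to 18. In TA the counts were 1231 with the replicate block, 1304 with the block on deposited values, 3 on the compared arrays only, 48 without the arrays numbered 3 and 78 to 533. The difference of effects gave 2 as deposited, 5 with median centring, 4 with no filter, 0 with the mean filter, 5 with 1 per gene, 1 with the block, 1 with the block on deposited values and 1 to 23. Soleus against TA gave in WT 3296 with the block, 4280 with the block on deposited values, 748 on the compared arrays only and 891 to 1718, and in KO 2989, 2969, 673 and 728 to 1459. Number gave 1336 with 1 per gene, 2 and 0 on soleus and TA arrays only and 1088 to 2694; by muscle it gave 24 with no filter, 0 with the mean filter, 1 with 1 per gene and 0 to 20. Fewer probe sets or arrays enter several of these settings; otherwise the cause was not tested. The block changed no call of a clock gene on the quantile-normalized values. Dim signals limit Per1, Per2 and Per3, whose differences near the floor may be understated. The hour of sampling is not in the labels, so no value here can be tied to a time of day.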
